A study of Mus musculus with 16 samples.

Results

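The kinesins are the microtubule motors whose gene symbols begin with Kif, and they were followed here through the celiac ganglia and tumors of a mouse neuroblastoma model. Members were taken by symbol alone, as every gene named Kif and a number together with Kifc1, Kifc2, Kifc3 and the kinesin-2 accessory subunit Kifap3. That gave 44 of the 24411 genes in the tables, of which 40 encode motors. Kifap3, the kinesin-binding protein gene Kif1bp, the antisense RNA Kif16bos and the pseudogene Kif4-ps do not. Within them a list of 8 mitotic kinesins (Kif11, Kif15, Kif20a, Kif23, Kif4, Kif2c, Kif18b and Kifc1) was set against a list of 7 kinesins of axonal transport (Kif1a, Kif1b, Kif3a, Kif3c, Kif5a, Kif5c and Kif21a), leaving 29 remaining members.

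The 16 RNA-Seq libraries fell into 5 groups. Ganglia came from animals 2 weeks old, and the labels give no age for the tumors. TF_WT was 4 ganglia free of the MYCN transgene with wild-type Runx1t1, and TF_HET was 3 transgene-free ganglia labelled Runx1t1 het, that is with 1 inactivated allele. The other ganglia were homozygous for the Th-MYCN transgene, 3 of them with wild-type Runx1t1 (MYCN_WT) and 2 labelled Runx1t1 het (MYCN_HET). The 4 tumors also carried the transgene on both alleles and were wild-type for Runx1t1. In Th-MYCN mice, kept on a 129/SvJ background, the tyrosine hydroxylase promoter drives expression of human MYCN in the sympathetic lineage. The authors crossed the Runx1t1 knockout line, CBB6-Runx1t1tm1Fc/H, with these mice, so the background of the groups may be mixed. The labels do not say whether the libraries of a group came from separate animals, so p-values measure the spread between these samples, which may be technical.

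Kinesins are ATP-driven proteins, most of which walk towards the plus ends of microtubules. A set of them is made mainly in dividing cells, where they build the spindle, move chromosomes and complete cytokinesis, and their RNA rises in G2 and mitosis. Another set carries vesicles, organelles and other cargo from the cell body of a neuron down its axon, and these motors are abundant in postmitotic neurons such as those of a sympathetic ganglion.

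Promoter sequence is shown for 4 mitotic kinesins, because genes of mitosis are often controlled through a CCAAT box and a cell cycle homology region near their start. Promoters from RefSeq (GRCm38.p6) were held for 34 of the 44 members, 7 of them mitotic and 6 axonal, and the 250 bases before each start were searched on both strands. The CCAAT box was searched by those letters. The cell cycle homology region was searched as TTTGAA, with TTCGAA as a second form. The E-box, the site that MYC proteins bind, was searched as CACGTG. Read from the opposite strand, CCAAT appears as ATTGG and TTTGAA as TTCAAA. The 110 bases before the RefSeq start are given 5′ to 3′ on the strand of the gene, with every match in capitals, for Kif11 (chr19:37376272-37376381, plus strand), Kif2c (chr4:117178773-117178882, minus strand), Kif18b (chr11:102925125-102925234, minus strand) and Kif23 (chr9:61946800-61946909, minus strand).
Kif11: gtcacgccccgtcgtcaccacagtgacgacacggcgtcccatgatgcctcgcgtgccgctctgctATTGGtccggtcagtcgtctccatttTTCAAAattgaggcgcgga
Kif2c: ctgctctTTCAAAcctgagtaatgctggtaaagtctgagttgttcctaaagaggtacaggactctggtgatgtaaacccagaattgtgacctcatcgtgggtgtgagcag
Kif18b: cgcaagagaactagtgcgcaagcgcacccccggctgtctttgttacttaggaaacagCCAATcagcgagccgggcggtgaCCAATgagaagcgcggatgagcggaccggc
Kif23: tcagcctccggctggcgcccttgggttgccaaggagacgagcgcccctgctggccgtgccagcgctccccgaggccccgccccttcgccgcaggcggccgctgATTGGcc
Kif11 held both elements in these bases, Kif2c a cell cycle homology region, Kif18b a pair of CCAAT boxes and Kif23 a single one. The RefSeq start used for Kif2c lies inside the span that GENCODE gives the gene. Of the 7 mitotic promoters, 5 held a CCAAT box (71.4%) and 3 a cell cycle homology region (42.9%), beside 37.5% and 19.6% of the 27025 genes in the table. Each of the 7 mitotic promoters held at least 1 of these elements, as did 3 of the 6 axonal promoters and 49.1% of all genes. The plan was to search each element on its own, and this joint count was added to it. The choice of the 4 promoters shown was not set in that plan. The E-box letters stood in none of the 7 mitotic promoters, in that of Kif1a among the 6 axonal ones, and in 6.86% of all genes. A match describes the letters only, and a window without one says nothing of the factor.

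Libraries held 10692299 to 38618757 counts, and the 6 under 20000000 were all ganglia, both MYCN_HET libraries among them. They were the ganglia numbered replicate 1 or 2, while every ganglion numbered 3 or 4 held at least 24873952 counts. All 12 markers of sympathetic neurons were above 0 TPM in every library, although their summed level was 1276 to 1873 TPM in the tumors and 5777 to 21247 TPM in the ganglia. Replicate 2 of TF_WT stood apart. All 6 lymphocyte markers were highest there of all 16 libraries, with a sum of 552 TPM against 0.56 to 6.53 TPM in the other 15, where Cd3e was at 0 in most, and all 12 neuron and 8 glia markers were the lowest of the 7 transgene-free ganglia. The RNA of Runx1t1 itself did not separate the het groups from their wild-type counterparts. It was 2.78 to 4.41 TPM in TF_WT and 4.36 to 6.28 TPM in TF_HET, and 7.90 to 70.3 TPM in MYCN_WT and 8.83 and 16.9 TPM in MYCN_HET.

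The first question was how the kinesin genes of tumors differ from those of transgene-free ganglia. All 8 mitotic kinesins were higher in tumors, by 4.35 to 6.11 on the log2 scale, while 6 of the 7 axonal kinesins were lower, by 0.83 to 2.08. Only Kif5c among the 15 did not pass the test. Levels are given as TPM (transcript abundance scaled for transcript length and library size), and fold changes come from the counts with edgeR, where a gene was called at an adjusted p under 0.05 over the 16665 genes tested. The fold changes had a median of 5.06 for the mitotic list and -1.33 for the axonal list, beside -0.06 for all genes tested. This comparison called 30.6% of all genes higher and 30.9% lower in tumors. In whole tissue, fewer cells of a type and less RNA per cell cannot be told apart.

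Kif11 (chr19:37376403-37421859) is the motor that pushes spindle poles apart, and its promoter is the first of those shown. In TF_WT replicates 1 to 4 it was at 2.43, 14.5, 2.67 and 2.69 TPM, in TF_HET replicates 1, 3 and 4 at 2.14, 2.33 and 3.14 TPM, in MYCN_WT replicates 1, 3 and 4 at 75.2, 5.35 and 35.5 TPM, in MYCN_HET replicates 1 and 2 at 3.49 and 16.3 TPM, and in tumors 1 to 4 at 90.2, 89.7, 74.2 and 79.5 TPM. Every tumor lay above every transgene-free ganglion, the highest ganglion without the transgene was TF_WT replicate 2, and the MYCN_WT ganglia ran from near the transgene-free level to that of the tumors. The log2 fold change of tumors against transgene-free ganglia was 4.88 (SE 0.70, edgeR adjusted p = 4.2e-05).

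Kif2c (chr4:117159639-117182639), a motor that takes microtubules apart at centromeres, had the widest difference. In TF_WT it was at 1.60, 9.14, 1.32 and 0.22 TPM, in TF_HET at 0.74, 1.32 and 0.87 TPM, in MYCN_WT at 59.6, 2.54 and 31.2 TPM, in MYCN_HET at 1.83 and 11.4 TPM, and in tumors at 81.1, 92.1, 86.7 and 99.2 TPM. The 4 tumors were above all 12 ganglia. Its log2 fold change was 6.11 (SE 0.93, edgeR adjusted p = 6.5e-05).

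Kifc1 (chr17:33875659-33890661), which walks to the minus end and gathers spindle poles, reached the highest level of the list. It was at 3.48, 14.3, 4.99 and 3.43 TPM in TF_WT, at 2.74, 2.58 and 3.91 TPM in TF_HET, at 113.9, 8.12 and 47.7 TPM in MYCN_WT, at 7.39 and 23.8 TPM in MYCN_HET and at 143, 152, 141 and 168 TPM in tumors. The tumors lay above every ganglion here too, and the log2 fold change was 5.49 (SE 0.64, edgeR adjusted p = 7.8e-06). Kifc5b, a near copy of Kifc1 whose reads the counting could share with it, was at 39.1 to 62.2 TPM in tumors and 1.08 to 6.09 TPM in transgene-free ganglia, so the share of Kifc1 alone is uncertain.

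Kif20a and Kif23, the kinesin-6 motors of the central spindle and of cytokinesis, were at 109.7 ± 14.3 and 59.2 ± 2.85 TPM in tumors (mean ± SD, n = 4). In the 7 transgene-free ganglia Kif20a ran from 2.45 to 10.1 TPM with a median of 4.12, and Kif23 from 1.30 to 14.9 TPM with a median of 3.16. Their log2 fold changes were 5.07 (SE 0.53) and 4.35 (SE 0.70), the latter the smallest of the list. Both were higher in every tumor than in any transgene-free ganglion.

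Kif15, which helps to hold the spindle bipolar, was at 52.3 ± 7.59 TPM in tumors (SD, n = 4) and at 0.76 to 10.5 TPM in transgene-free ganglia. Kif4, a motor of chromosome arms and the spindle midzone, was at 50.0 ± 8.83 TPM in tumors and at 1.09 to 7.12 TPM in transgene-free ganglia. Kif18b, which works at the ends of astral microtubules, was at 40.4 ± 10.1 TPM in tumors and at 0.67 to 4.92 TPM in transgene-free ganglia. For these 3 the log2 fold changes were 5.25 (SE 0.79), 4.88 (SE 0.66) and 5.06 (SE 0.75), and again no transgene-free ganglion reached a tumor. Every tumor was above every transgene-free ganglion in TPM for 8 of 8 mitotic kinesins, beside 14.5% of all genes tested, and all 8 calls held without TF_WT replicate 2 and without any other single library. Without TF_WT replicate 2 the log2 fold changes were 4.88 to 6.95, and that of Kif15 moved to 5.97, of Kif18b to 5.66, of Kif11 to 5.48 and of Kif2c to 6.95.

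**Figure D1:**
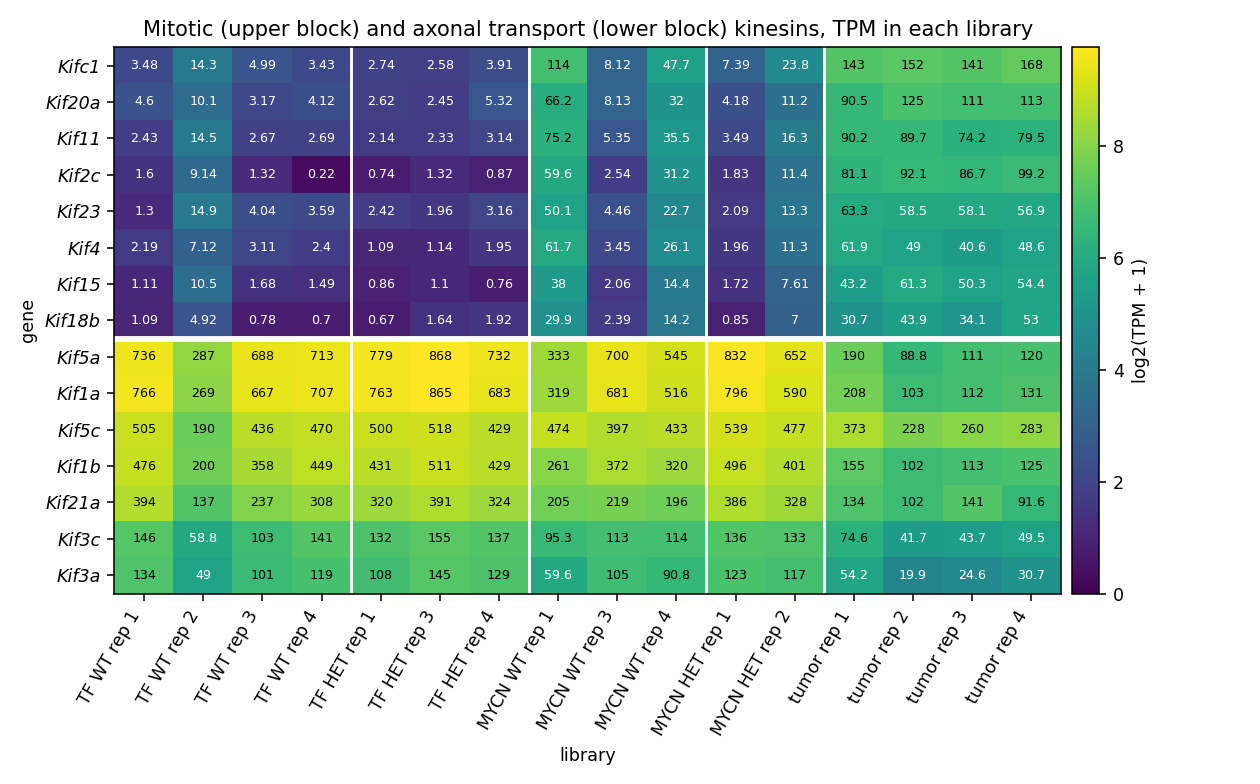
Heat map of the 8 mitotic and 7 axonal kinesins (horizontal lines) over the 16 libraries (columns), coloured by log2(TPM + 1) with the TPM written in each cell. Mitotic kinesins are low in all transgene-free ganglia but TF_WT replicate 2, range from 2.06 to 114 TPM over the 3 MYCN_WT ganglia and lie at 30.7 to 168 TPM in tumors. Of the 7 axonal kinesins, edgeR called 6 lower in tumors than in transgene-free ganglia, all but Kif5c. It called 0 of 7 in MYCN_WT against TF_WT.

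Among the motors of axonal transport, Kif5a (chr10:127225696-127263348) fell furthest. Kif5a, the neuronal heavy chain of conventional kinesin, was at 736, 287, 688 and 713 TPM in TF_WT, at 779, 868 and 732 TPM in TF_HET, at 333, 700.0 and 545 TPM in MYCN_WT, at 832 and 652 TPM in MYCN_HET and at 190.3, 88.8, 111 and 119.8 TPM in tumors. All 4 tumors were below every ganglion, with TF_WT replicate 2 the nearest transgene-free library. The log2 fold change of tumors against transgene-free ganglia was -2.08 (SE 0.29, edgeR adjusted p = 2.9e-05).

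Kif1a (chr1:93015464-93101951), the motor of synaptic and dense-core vesicle precursors, was at 766, 269, 667 and 707 TPM in TF_WT, at 763, 865 and 683 TPM in TF_HET, at 319, 681 and 516 TPM in MYCN_WT, at 796 and 589.6 TPM in MYCN_HET and at 208, 103, 112 and 131 TPM in tumors. Its tumors too lay below every ganglion, and its log2 fold change was -1.86 (SE 0.30, edgeR adjusted p = 9.6e-05). Kif1b, a carrier of mitochondria and vesicles, was at 123.7 ± 22.9 TPM in tumors (SD, n = 4) and at 200.0 to 511 TPM in transgene-free ganglia, with a log2 fold change of -1.33 (SE 0.21).

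Kif3a and Kif3c are kinesin-2 motor subunits. Kif3a was at 32.4 ± 15.2 TPM in tumors (SD, n = 4) against 112 ± 31.7 TPM in transgene-free ganglia (SD, n = 7), a log2 fold change of -1.37 (SE 0.29), and Kif3c was at 52.4 ± 15.2 TPM against 124.6 ± 33.3 TPM, a log2 fold change of -0.83 (SE 0.22). Kif21a, a kinesin-4 that restrains microtubule growth, was at 117 ± 24.4 TPM in tumors and 302 ± 90.1 TPM in transgene-free ganglia, a log2 fold change of -0.96 (SE 0.22). The tumor with the highest level overlapped TF_WT replicate 2 in all 3 of these genes.

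Kif5c (chr2:49619298-49774778), a second neuronal heavy chain of conventional kinesin, did not follow Kif5a. It was at 505, 190.0, 436 and 469.6 TPM in TF_WT, at 499.7, 518 and 429 TPM in TF_HET, at 474, 397 and 433 TPM in MYCN_WT, at 539 and 477 TPM in MYCN_HET and at 373, 228, 260.5 and 283 TPM in tumors. Leaving out TF_WT replicate 2, the tumors were below all transgene-free ganglia in TPM, but on the scale of the count test the log2 fold change was -0.18 (SE 0.22, edgeR adjusted p = 0.49). With limma on log2(TPM + 1) it was -0.59, adjusted p = 0.035, on a scale whose median over all genes was -0.42, and over all alternatives the adjusted p ran from 0.035 to 0.75. Kif5c was the most abundant kinesin in all 4 tumors and in MYCN_WT replicate 1, and in every other library Kif5a or Kif1a was.

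Every tumor lay below every transgene-free ganglion in TPM for 3 of the 7 axonal kinesins, beside 30.9% of all genes, and with TF_WT replicate 2 left out for 7 of 7, beside 36.9%. In the count test the 6 axonal calls held without any single library. When a change had to exceed 1 on the log2 scale, 2 of them remained calls, Kif5a and Kif1a. Markers of cell types were called in both directions. In the same comparison 8 of 12 neuron markers were called lower and 2 higher, 7 of 8 glia markers lower and 6 of 6 fibroblast markers lower. None of the neuron, glia or fibroblast markers was at 0 in any library. Also called lower were 3 of 5 endothelium, 3 of 4 adrenal cortex and 1 of 5 tested lymphocyte markers. Called higher were 2 of 6 myeloid and 1 of 3 chromaffin markers, and no erythroid marker was called. All 6 proliferation markers were called higher, with a median log2 fold change of 4.97, beside 5.06 for the mitotic kinesins. The summed neuron markers were 1276 to 1873 TPM in tumors and 11799 to 19983 TPM in the transgene-free ganglia other than TF_WT replicate 2, which had 7092 TPM. The part of cell composition in the fold changes was not tested.

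The same contrast could be read as a balance within the gene family. Summed over the list, the mitotic kinesins were at 604, 671, 596 and 672 TPM in the tumors, and at 13.3 to 21.8 TPM in the transgene-free ganglia, except for 85.5 TPM in TF_WT replicate 2. The axonal kinesins summed to 1190 TPM in tumor 1 and 685, 807 and 831 TPM in tumors 2 to 4, and to 2590 to 3452 TPM in transgene-free ganglia, again with TF_WT replicate 2 apart at 1191 TPM. There were therefore 1.02 to 1.97 transcripts of axonal kinesins for each mitotic one in tumors and 119 to 238 in transgene-free ganglia, with 13.9 in TF_WT replicate 2. As a share of the summed TPM of all 44 members, those that are no motor included, the mitotic list took 24.0% to 33.9% in tumors. It took 0.329% to 0.626% in those ganglia, and 4.46% in TF_WT replicate 2.

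**Figure D2:**
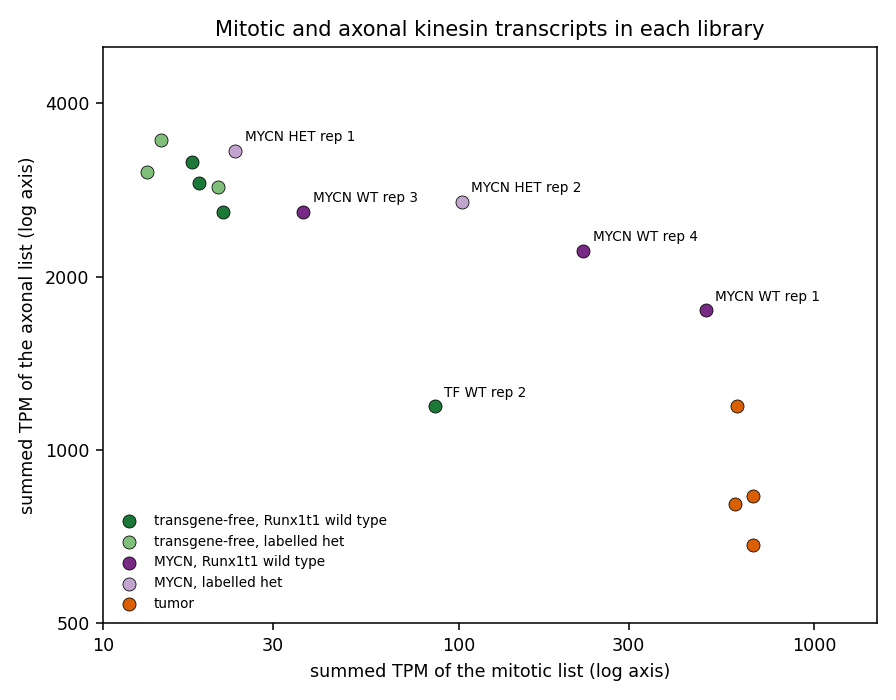
Summed TPM of the 8 mitotic kinesins (horizontal axis) against that of the 7 axonal kinesins (vertical axis), 1 point per library, both axes logarithmic, coloured by group. The tumors form a cluster at 596 to 672 mitotic TPM, 6 transgene-free ganglia lie at 13.3 to 21.8, and the 3 MYCN_WT ganglia are spread between them at 36.5, 224 and 495.

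Of the remaining 29 members 26 were tested, and 16 were called in tumors against transgene-free ganglia, 6 higher and 10 lower. This comparison called 61.4% of all genes in either direction, a share close to that of these members. Over all members, 30 of the 41 tested were called, 14 higher and 16 lower. Kif2b, Kif16bos and Kif4-ps had too few counts for the test, with 5, 2 and 1 counts in all, and no member was without a count.

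Those with the largest rise were also genes of cell division. Kif14, which acts in cytokinesis, had a log2 fold change of 4.90 (SE 0.61), and Kif22, a chromokinesin, one of 4.88 (SE 0.54). Kif20b, a motor of abscission, had 4.48 (SE 0.67) and Kif18a, which aligns chromosomes, 4.35 (SE 0.47). Kif22 was the most abundant of these, at 86.1, 137, 104.7 and 119.7 TPM in tumors and at 2.89 to 12.2 TPM in transgene-free ganglia, without overlap. Kif24, a motor of the centriole and cilium, rose by a log2 fold change of 2.81 (SE 0.34), from 0.98 to 3.19 TPM in transgene-free ganglia to 9.84 to 13.6 TPM in tumors. The sixth call was Kifc3, a minus-end motor of cell junctions, at a log2 fold change of 0.49 (SE 0.17). Its TPM overlapped between the groups, at 14.9 to 25.1 in tumors and 13.35 to 25.8 in transgene-free ganglia, so the call is one of the count scale.

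The largest falls were in Kif19a and Kif9, motors of motile cilia, with log2 fold changes of -3.41 (SE 0.55) and -2.54 (SE 0.44). Both were low throughout, Kif19a at 2.18 to 7.06 TPM in transgene-free ganglia and 0.10 to 0.69 TPM in tumors, and Kif9 at 2.03 to 5.15 TPM and 0.15 to 0.63 TPM, and in neither gene did the groups overlap. Kifap3, the non-motor partner of the kinesin-2 subunits, was at 178, 70.8, 115 and 146 TPM in TF_WT, at 160.0, 161 and 147 TPM in TF_HET and at 36.9, 19.3, 22.7 and 28.7 TPM in tumors. Its log2 fold change was -1.97 (SE 0.23, edgeR adjusted p = 8.8e-06), and with Kif3b at -0.73 (SE 0.12) and Kif17 at -1.32 (SE 0.36) every kinesin-2 member was called lower. Kifc2, a minus-end motor of neurons, fell by 1.92 (SE 0.33) on the log2 scale. The other calls were Kif1c at -1.37, Kif26a at -1.33 and Kif1bp at -0.63.

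Kif21b (chr1:136131389-136177998), a kinesin-4 found in neurons and in lymphocytes, was high in a single library. It was at 1.93, 63.0, 5.25 and 2.09 TPM in TF_WT, at 2.80, 1.90 and 3.28 TPM in TF_HET, at 1.47, 2.88 and 2.47 TPM in MYCN_WT, at 2.57 and 1.38 TPM in MYCN_HET and at 1.00, 1.62, 1.02 and 1.37 TPM in tumors. The high library was TF_WT replicate 2, the one with the high lymphocyte markers, and the other 15 lay between 1.00 and 5.25 TPM. Its summed myeloid and endothelium markers, at 575 and 436 TPM, were also the highest of all libraries. The part of these cell types in the Kif21b level was not tested. The log2 fold change was -2.08 (SE 0.85, edgeR adjusted p = 0.047). Without that library it was -0.73, adjusted p = 0.065, and over all alternatives the adjusted p ran from 0.0075 to 0.23. The call was lost in 8 of the 11 fits that left out 1 library, including each tumor and each TF_HET ganglion, and in 6 of the 9 other alternatives.

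Some kinesins did not pass the test in this comparison. Kif5b, the conventional kinesin heavy chain of most cell types, was at 91.0 to 114 TPM in tumors and 106 to 160.4 TPM in transgene-free ganglia, a log2 fold change of -0.02 (SE 0.13, edgeR adjusted p = 0.90). Thus the 3 heavy chains of conventional kinesin gave log2 fold changes of -2.08 for Kif5a, -0.18 for Kif5c and -0.02 for Kif5b in the same libraries. Kif2a, a microtubule depolymerase of neurons and other cells related to Kif2c, was at 52.6 to 57.3 TPM in tumors and 44.6 to 69.2 TPM in transgene-free ganglia. On the scale of the count test its log2 fold change was 0.27 (SE 0.12, adjusted p = 0.055 by edgeR). The mean TPM ran the other way, at 55.5 in tumors and 60.8 in transgene-free ganglia, so its direction depends on the scale. Kif13a, Kif13b and Kif16b, kinesin-3 motors of endosomes, and Kif26b and Kif7 had log2 fold changes between -0.59 and 0.33 and were not called. In TPM, however, every tumor lay below every transgene-free ganglion for Kif16b, as for 30.9% of all genes. It was at 9.89 to 13.5 TPM in tumors and 17.1 to 25.8 TPM in transgene-free ganglia, while the others overlapped.

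**Figure D3:**
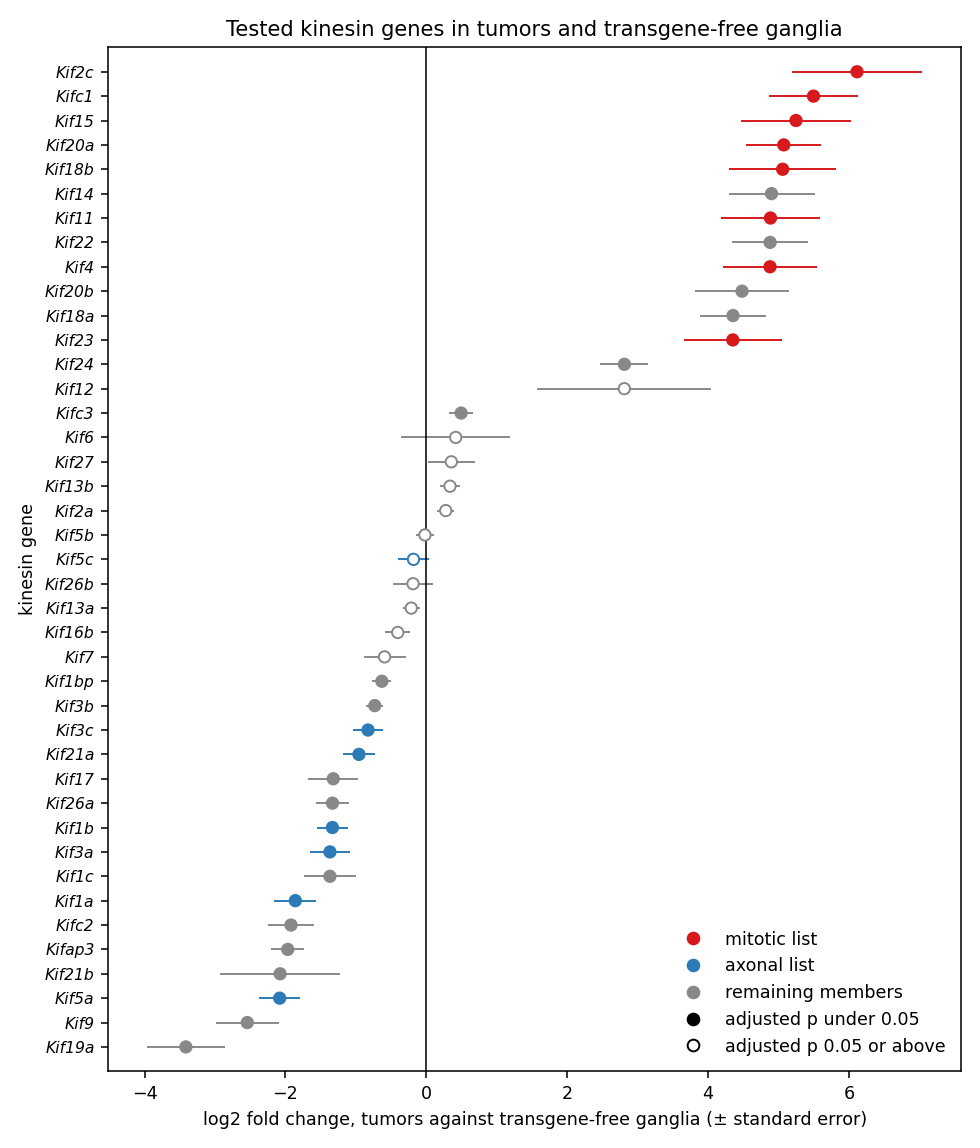
Log2 fold change of tumors against transgene-free ganglia (horizontal axis, with standard errors) for the 41 kinesin genes tested, by class, with filled points for genes called by edgeR. Called genes lie from -3.41 (Kif19a) to 6.11 (Kif2c), and Kif5c and Kif5b sit near 0.

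**Figure D4:**
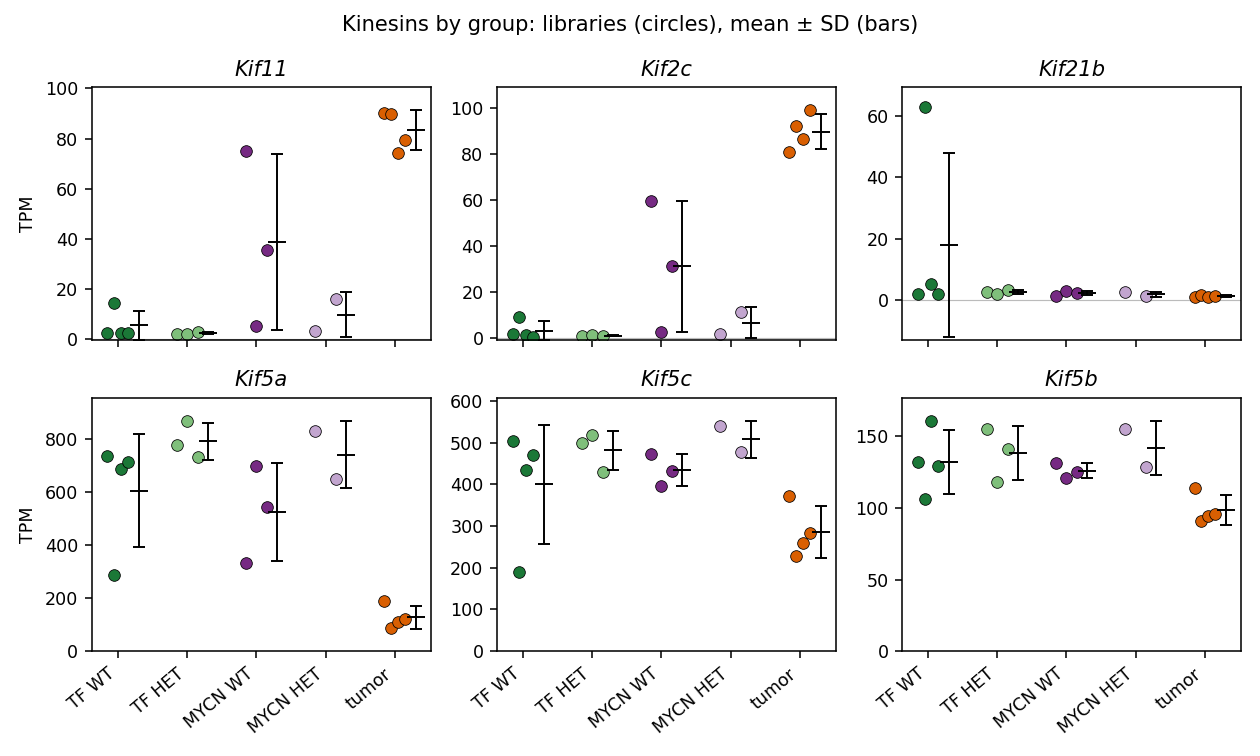
TPM of 6 kinesins in each library (circles) by group, with the group mean ± SD. Kif11 and Kif2c rise to the tumors with a wide spread in MYCN_WT, Kif5a falls, Kif5c and Kif5b differ less, and Kif21b is high in 1 TF_WT library, at 63.0 TPM.

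The genes that work with these motors were described in the same way, from lists of mitotic partners, cargo adaptors, the retrograde motor dynein with dynactin, and axonal microtubule proteins. The shares for all genes were 30.6% higher and 30.9% lower, with a median of -0.06. Of 16 mitotic partners, 16 were higher in tumors than in transgene-free ganglia, with a median log2 fold change of 4.85. They included Incenp and Birc5 of the chromosomal passenger complex (3.74, SE 0.43, and 5.02, SE 0.70), the checkpoint kinase Bub1b (5.06, SE 0.63) and the mitotic kinase Plk1 (5.74, SE 0.74). Incenp was at 203 ± 15.6 TPM in tumors (SD, n = 4) and 21.3 ± 11.4 TPM in transgene-free ganglia (SD, n = 7).

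Of 16 light chains and cargo adaptors, 12 were lower and none higher, with a median of -0.64. Klc1, the light chain that couples Kif5 heavy chains to cargo, was at 392 ± 117 TPM in tumors (SD, n = 4) and 1887 ± 528 TPM in transgene-free ganglia (SD, n = 7), a log2 fold change of -1.85 (SE 0.25). The JNK-interacting scaffold genes gave log2 fold changes of -0.84 (SE 0.21) for Mapk8ip2, -0.63 (SE 0.20) for Mapk8ip3 and -0.03 (SE 0.17) for Mapk8ip1, of which the last was not called. Of 19 dynein and dynactin genes, 13 were lower and 1 higher, with a median of -0.77. The dynein heavy chain Dync1h1 was at -0.90 (SE 0.18), the dynactin subunits Dctn1 and Dctn2 at -1.01 (SE 0.20) and -0.81 (SE 0.16), and the light chain Dynlrb1 at -0.61 (SE 0.14).

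Of 12 axonal microtubule proteins, 10 were lower and 1 higher, with a median of -1.15. Map1a, a structural microtubule protein of mature neurons, was at 39.2 ± 12.5 TPM in tumors (SD, n = 4) and 528 ± 140 TPM in transgene-free ganglia (SD, n = 7), a log2 fold change of -3.31 (SE 0.34). Map1b gave -1.87 (SE 0.29), the tubulin-binding Stmn2 -1.73 (SE 0.36) and the neuronal tubulin Tubb3 -1.13 (SE 0.26). The gene that was higher was Dcx, doublecortin of immature neurons, at 2.68.

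Tumors were next set against ganglia of the same MYCN genotype. Against MYCN_WT the mitotic kinesins had log2 fold changes of 1.03 to 1.96 with a median of 1.73, beside -0.01 for all genes, and edgeR called Kif20a alone, at 1.96 (SE 0.63, adjusted p = 0.028). This was 1 of 8, in a comparison that called 14% of all genes higher and 20.5% lower. The count ran from 0 (without MYCN_WT replicate 3, MYCN_WT replicate 4 or tumor replicate 2) to 6 (without MYCN_WT replicate 1, where 18.9% of all genes were called higher). Of the axonal kinesins 4 of 7 were called lower, namely Kif5a at -1.75 (SE 0.32), Kif1a at -1.46 (SE 0.33), Kif1b at -0.99 (SE 0.24) and Kif3a at -0.99 (SE 0.33), and the list median was -0.99. With a block for the replicate number Kif3a was not called (adjusted p = 0.053 by edgeR, 0.0030 to 0.79 over all alternatives), which left 3 of 7. Over the alternatives the count of axonal calls ran from 1 with the minimum fold change to 6 with limma on log2(TPM + 1), and from 3 to 5 when single libraries were left out. The limma scale also lowered the median of all genes. No share of all genes called lower is given here for these fits, so the counts have no background. Markers moved here too, with 7 of 12 neuron markers, 7 of 8 glia markers and 6 of 6 fibroblast markers called lower in tumors than in MYCN_WT. Of the proliferation markers 1 of 6 was called higher, with a list median of 1.57. In addition 1 of 3 chromaffin markers was called higher and 1 of 4 adrenal cortex markers lower. The part of these markers was not tested.

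Over all members 16 of 41 were called against MYCN_WT, 5 higher and 11 lower, beside 34.5% of all genes in either direction. Besides Kif20a the higher ones were Kif14 at 2.09 (SE 0.74), Kif22 at 1.98 (SE 0.64), Kif18a at 1.69 (SE 0.57) and Kif24 at 1.34 (SE 0.43). The lower ones with the largest change outside the axonal list were Kif19a at -3.32 (SE 0.59), Kif9 at -2.02 (SE 0.49), Kifc2 at -1.60 (SE 0.37), Kifap3 at -1.44 (SE 0.26) and Kif1c at -1.27 (SE 0.42). Among the partners, 4 of 16 mitotic partners were higher, and 5 of 16 cargo adaptors, 9 of 19 dynein and dynactin genes and 7 of 12 axonal microtubule proteins were lower, to be read against the 14% and 20.5% of all genes.

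Against MYCN_HET all 8 mitotic kinesins were called higher in tumors, by 3.39 to 4.32 with a median of 3.80, beside 0.07 for all genes, and 6 of the 7 axonal kinesins were called lower, with a median of -1.41. The background was 22.0% of all genes called higher and 23.5% lower. Kif5c was again the axonal kinesin that did not pass, at -0.34 (adjusted p = 0.37 by edgeR). Of all members 27 of 41 were called, 13 higher and 14 lower, beside 45.5% of all genes in either direction. In the same comparison 8 of 12 neuron markers, 7 of 8 glia markers and 6 of 6 fibroblast markers were called lower, and 1 neuron marker higher. All 6 proliferation markers were called higher, with a median of 3.77, and 3 of 4 adrenal cortex markers lower. MYCN_HET had only 2 libraries, which differed from each other in every mitotic kinesin, and without MYCN_HET replicate 1 the count of mitotic calls was 1, in a fit that called 9.27% of all genes higher. With 1 of these libraries left out, here and below, the spread is estimated from the other groups and the lone library is assumed to vary like them, so a lost call does not measure the effect of that library alone. The comparisons of tumors with each ganglion group share the 4 tumors, so their values stand side by side and are not independent.

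The effect of the transgene at 2 weeks was addressed by comparing MYCN_WT with TF_WT. The mitotic kinesins were at higher fitted levels in MYCN_WT, by 2.17 (Kif23) to 3.43 (Kif2c) on the log2 scale with a median of 2.99, beside -0.04 for all genes, but none passed the edgeR test, with adjusted p values from 0.052 to 0.17. Thus 0 of 8 were called, in a comparison that called 0.936% of all genes. At an unadjusted p under 0.05 there were 8 of 8, beside 19.8% of all genes, and DESeq2 called 6, beside 7.73% of all genes. For the axonal kinesins the log2 fold changes lay between -0.33 and 0.18 with a median of -0.19, edgeR called 0 of 7, none had an unadjusted p under 0.05, and DESeq2 called 0. Of all 41 members tested edgeR called 0, 16 had an unadjusted p under 0.05, and DESeq2 called 13.

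The spread within these groups was wide and shared by the whole mitotic list. MYCN_WT replicate 1 was above replicate 4, and replicate 4 above replicate 3, for 8 of 8 mitotic kinesins. Their sums in these libraries were 495, 224 and 36.5 TPM. Replicate 3 was above all transgene-free ganglia other than TF_WT replicate 2 for 8 of 8, and below that library for 8 of 8. Every MYCN_WT ganglion was therefore above every TF_WT ganglion for 0 of 8 mitotic kinesins, beside 4.93% of all genes. With TF_WT replicate 2 left out this was so for 8 of 8, beside 9.76%. No share of all genes is given here or below for the orderings of single libraries, so those counts have no background.

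Leaving out single libraries changed the calls. Without TF_WT replicate 2 the log2 fold changes of the mitotic kinesins were 3.22 to 5.09 and edgeR called 8 of 8, with adjusted p values of 0.032 to 0.043, while the same fit called 4.08% of all genes. Without MYCN_WT replicate 3 they were 2.68 to 3.99 and again 8 of 8 were called, with adjusted p values of 0.0023 to 0.041, in a fit that called 10.9% of all genes. Without MYCN_WT replicate 1 they were 1.08 to 2.43 and 0 were called, with adjusted p values of 0.43 to 0.78. Over the 7 fits that each left out 1 of these ganglia, the fold changes were positive throughout.

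**Figure D5:**
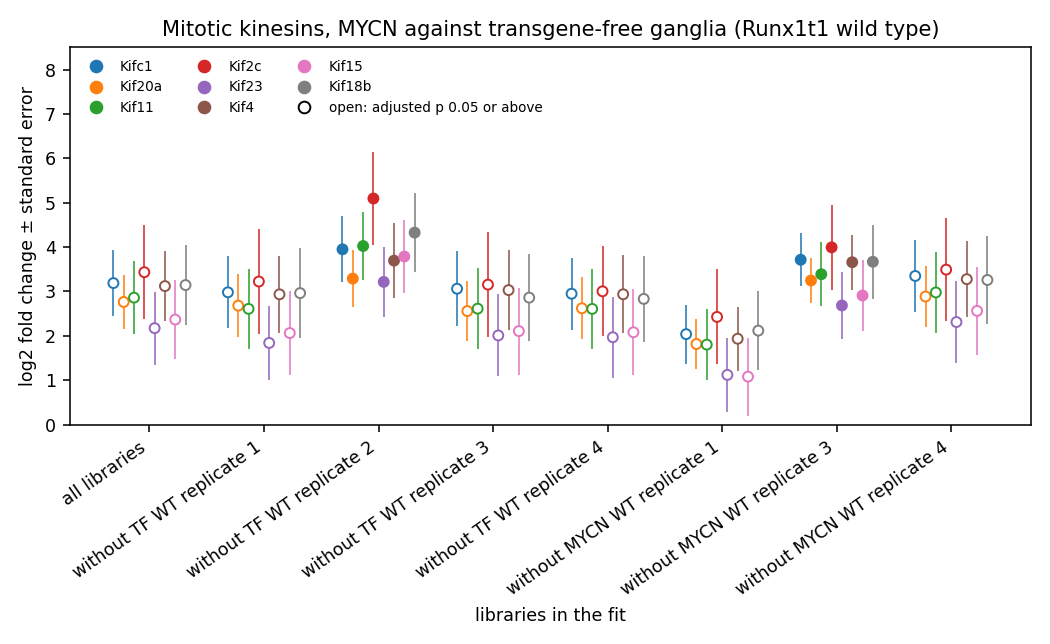
Log2 fold change of MYCN_WT against TF_WT ganglia (with standard errors) for the 8 mitotic kinesins, with all libraries and with each library of the 2 groups left out, filled where edgeR called the gene. Points are filled for all 8 genes in 2 settings, without TF_WT replicate 2 and without MYCN_WT replicate 3.

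Other measures moved with the mitotic kinesins in these libraries. The summed proliferation markers were 1054, 110.04 and 566 TPM in MYCN_WT replicates 1, 3 and 4, 74.4 to 84.4 TPM in TF_WT replicates 1, 3 and 4, and 285 TPM in TF_WT replicate 2. Lymphocyte markers, at 552 TPM in TF_WT replicate 2, summed to 2.56 to 4.31 TPM in the MYCN_WT libraries, where Cd3e and Cd3d were each at 0 in at least 1. MYCN_WT replicate 1 was also the shallowest of its group, at 11240429 counts, and the neuron markers summed to 5777 to 11315 TPM in MYCN_WT. Whether composition accounts for the spread was not tested. Of the mitotic partners Kntc1, of the kinetochore, was called higher in MYCN_WT (adjusted p = 0.038 by edgeR), and of the axonal microtubule proteins Dcx, at 2.67 (adjusted p = 0.033 by edgeR).

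The het label was addressed in 4 further comparisons, none of which had a called kinesin. Between MYCN_HET and TF_HET the mitotic kinesins had log2 fold changes of 1.11 to 2.69 with a median of 2.07, of which edgeR called 0 of 8, 2 had an unadjusted p under 0.05 and DESeq2 called 0. All genes together gave 0.0% called by edgeR, 242 (1.45%) at an unadjusted p under 0.05 and 13 calls by DESeq2. The axonal kinesins lay between -0.20 and 0.03, with 0 of 7 called by edgeR or DESeq2 and none at an unadjusted p under 0.05. In TPM both MYCN_HET libraries were above every TF_HET library for 5 of 8 mitotic and 0 of 7 axonal kinesins. The share of all genes is not given here for that count. The 2 MYCN_HET libraries again differed. Replicate 2 was above replicate 1 for 8 of 8 mitotic kinesins and below it for 7 of 7 axonal kinesins, with mitotic sums of 102 and 23.5 TPM. The mitotic median was accordingly 2.81 without replicate 1 and 0.40 without replicate 2, each with 1 MYCN_HET library left.

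Between MYCN_HET and MYCN_WT the mitotic kinesins had log2 fold changes of -2.39 to -1.89 with a median of -2.12, and the axonal kinesins of 0.11 to 0.68 with a median of 0.39. edgeR called 0 of 8 and 0 of 7, in a comparison that called 0.012% of all genes, 3 mitotic and 1 axonal kinesins had an unadjusted p under 0.05, beside 12.6% of all genes, and DESeq2 called 0 of either list, beside 1.63% of all genes. Summed neuron markers were 16454 and 21247 TPM in MYCN_HET and 5777 to 11315 TPM in MYCN_WT, without overlap, and 10 of 12 had a positive fold change (median 0.74), while 6 of 6 proliferation markers had a negative one (median -2.23). edgeR called 0 of these markers, 4 neuron and 4 proliferation markers had an unadjusted p under 0.05, DESeq2 called 0 of both lists, and their part in the kinesin values was not tested. The mitotic levels overlapped between the groups for 8 of 8 genes, since MYCN_HET replicate 2 was above MYCN_WT replicate 3 for 8 of 8 mitotic kinesins while MYCN_WT replicates 1 and 4 were above both MYCN_HET libraries. For 5 of the 7 axonal kinesins (Kif1b, Kif21a, Kif3a, Kif3c and Kif5c) both MYCN_HET libraries were above all 3 MYCN_WT libraries in TPM, beside 20.9% of all genes, and the axonal sums were 2697 and 3309 TPM against 1747 to 2587 TPM. Without MYCN_WT replicate 3 edgeR called Kif20a, 1 of 8, beside 1.92% of all genes. The mitotic median ran from -3.74 without MYCN_HET replicate 2, with 1 library left in that group, to -1.08 without MYCN_WT replicate 1.

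Between TF_HET and TF_WT the mitotic kinesins had log2 fold changes of -2.08 to -0.40 with a median of -1.25, and the axonal kinesins of 0.26 to 0.40 with a median of 0.32. edgeR called 0 of either list and 0.0% of all genes, no kinesin of the lists had an unadjusted p under 0.05, beside 4.12% of all genes, and DESeq2 called 0 of either list. TF_WT replicate 2 belongs to the wild-type side of this comparison. It had the highest mitotic and the lowest axonal values of the 7 transgene-free ganglia for 8 of 8 and 7 of 7 genes. All 12 neuron and 8 glia markers were also lowest there, and no share of all genes is given for these counts. Without TF_WT replicate 2 the mitotic median was -0.21, with log2 fold changes from -0.86 to 0.80, and the axonal median was 0.12. There were again 0 calls by edgeR and none at an unadjusted p under 0.05.

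The interaction, that is the difference between the transgene effect with and without the het label, had a median of -0.90 for the mitotic and 0.03 for the axonal list, with 0 calls by edgeR in either list, 0.0% of all genes called, none of the 15 at an unadjusted p under 0.05, beside 5.62% of all genes, and 0 calls of either list by DESeq2. The mitotic median of the interaction depended on single libraries, at -1.87 without TF_WT replicate 2, -1.43 without MYCN_WT replicate 3, -2.54 without MYCN_HET replicate 2, -0.17 without MYCN_HET replicate 1 and 0.26 without MYCN_WT replicate 1. edgeR called 0 of either list in each of these fits, of which the 2 without a MYCN_HET library leave 1 in that group and take their spread from the others.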

How the data were processed

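RNA-Seq was carried out on 16 mouse libraries in 5 groups, taken from the sample labels. The column headers write the Runx1t1 genotype as Het or Hom, and Hom was read as wild-type because the labels of those samples give wild-type. Tissue came from titles, as every sample has the cell type label neuroblastoma. RNA was extracted with the RNeasy Micro kit and libraries were made with the SMARTer Stranded Total RNA-seq v2 kit. The labels and the design text differ on the molecule (polyA RNA against a total RNA kit) and on the stated depth. The authors aligned reads to mm10 with STAR and quantified genes with RSEM. The deposited tables hold the expected counts of RSEM, not normalized, and TPM, scaled by the authors to a common sum per library. Whether counting used strand is not given in the sources used here, so overlapping and antisense genes are uncertain, as are near copies, among which RSEM shares out reads.

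Expected counts were rounded. R 4.3.3 with edgeR 4.0.16 filtered low counts by group (filterByExpr, 16665 genes kept), normalized by TMM and fitted all 5 groups in 1 quasi-likelihood model. The 8 comparisons were each adjusted by Benjamini-Hochberg over all genes tested, at a threshold of 0.05. Lists are described by counts of calls and the median log2 fold change. Members and lists were chosen with earlier results of these data known. Besides the 15 kinesins of the mitotic and axonal lists, the text names in each comparison at most 5 higher and 5 lower of the remaining members with the largest fold change among those called and a mean TPM of at least 1, and 4 partners a list by mean TPM. Kif21b in detail, Kif5b, Kif2a, Kifc3, the other calls and misses among the remaining members, Dcx and Kntc1 were chosen after their values were seen. Positions are from GENCODE vM21 (GRCm38).

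Alternatives were upper-quartile scaling, no filter on low counts, a filter of 10 counts in every library of a group, DESeq2 1.42.0, a replicate block, a minimum log2 fold change of 1, limma 3.58.1 on log2(TPM + 1), a fit of only the groups compared and leaving out each library. A depth term (under or over 20000000 counts) and all settings for Kif21b were chosen after seeing the data. The model fits were run on simulated data, in which 200 genes were changed in the tumors alone, and the outcome is not given here. The simulation held no difference between ganglion groups and no library set apart like TF_WT replicate 2. It therefore does not bear on the calls among ganglia.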

Additional observations from a re-analysis of the deposited data

Results flagged for a closer look

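In TF_WT and in the tumors, the groups with 4 libraries, each kinesin gene with a count in nearly all libraries and both list sums were examined for a library far from the other 3, by Dixon's criterion at the 95% level. Of 84 sets of values 9 met it, all in TF_WT and none in tumors, where chance gives about 1 in 20 for independent sets. These sets share their libraries and are not independent, and the share of all genes that met the criterion is not given here. The count therefore does not set the kinesins apart from other genes. TF_WT replicate 2 was the distant library in 8 of the 9. It was high for Kif11 at 14.48 TPM (others 2.43 to 2.69), for Kif15 at 10.48 TPM, for Kif18b at 4.92 TPM, for Kif2c at 9.14 TPM, for Kifc1 at 14.31 TPM and for the mitotic sum at 85.46 TPM (others 17.8 to 21.8). It was also high for Kif21b at 63.03 TPM (others 1.93 to 5.25) and low for Kif5a at 287.0 TPM (others 688 to 736). The ninth was Kif24 in TF_WT replicate 1, low at 0.98 TPM (others 2.30 to 2.53). TF_WT replicate 2 had summed markers of 552 TPM for lymphocytes, 575 TPM for myeloid cells and 436 TPM for endothelium, against at most 6.53, 265 and 241 TPM in the other 15 libraries. Their part in these values was not tested.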

How the results depend on the processing

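The calls of the 8 mitotic kinesins in tumors against transgene-free ganglia held under every alternative run, and the 6 axonal calls under all but 1. A minimum log2 fold change of 1 left 2 axonal calls there, 0 mitotic and 1 axonal against MYCN_WT, and 3 mitotic and 2 axonal against MYCN_HET. Against MYCN_WT the count of mitotic calls, 1 as reported, was 2 with DESeq2, 6 with the depth term, 5 with limma and 0 with only the groups compared, and 0 to 6 when single libraries were left out. Against MYCN_HET it was 1 to 8 when single libraries were left out, which leaves 1 MYCN_HET library where that group loses one. In MYCN_WT against TF_WT the mitotic count of 0 became 2 with upper-quartile scaling, 6 with DESeq2, 1 with no filter, 1 with a filter of 10 counts, 2 with the depth term and 0 to 8 when single libraries were left out. In MYCN_HET against MYCN_WT it was 0 to 1 in the latter case. Beyond the shares given in the Results, no share of all genes called is given for these alternatives or for the replicate block below. Such counts can move with the number of genes a fit calls. They therefore do not set the kinesins apart from other genes. Only axonal kinesins near 0 changed sign in MYCN_WT against TF_WT. Kif3c was at 0.018 with no filter and 0.021 with limma. It ran from -0.21 to 0.14 when single libraries were left out, positive without TF_WT replicate 1 or 4. In the same way Kif5a ran from -0.36 to 0.082, positive without MYCN_WT replicate 1, and Kif5c from -0.035 to 0.32, negative without TF_WT replicate 2. The cause of these changes was not tested. limma on log2(TPM + 1) shifted the median of all genes to -0.42, -0.33 and -0.40 in the tumor comparisons.

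Same-numbered libraries of TF_WT and tumors had deviations that correlated at 0.149 to 0.308, but those of TF_HET and tumors at -0.143 to 0.0208 and those of TF_WT and MYCN_WT at -0.145 to 0.178, so the numbers were not taken as pairs. Among ganglia the numbers did follow depth, since those numbered 1 or 2 were the libraries under 20000000 counts. With a replicate block the mitotic and axonal calls were 8 and 6 in tumors against transgene-free ganglia, 1 and 3 (4 without the block) against MYCN_WT, 8 and 6 against MYCN_HET, and 0 and 0 in MYCN_WT against TF_WT.

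Groups of 2 to 4 libraries, 6 ganglia under 20000000 counts and the distance of TF_WT replicate 2 from its group limit the comparisons among ganglia.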
